A study of Mus musculus with 4 samples.

Results

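The interferon response and antigen presentation genes were examined as a group of 44 genes, written as a list of interferon receptors, nucleic acid sensors, interferon-induced effectors and class I antigen presentation genes, to check for a response to the hairpin. A member is represented by the probe set that the array annotation gives to that gene alone, and by the one with the highest mean log2(signal + 16) where there are several. Of the 44 members 42 had such a probe set, out of 18193 genes on the array, and 33 passed the filter on dim probe sets that left 12866 genes to test. The cells are C2C12, a mouse myoblast line that can form multinucleated myotubes in culture. In the SFMBT1 knock-down group 2 cultures carried the lentiviral vector pLKO.1 with a short hairpin RNA against Sfmbt1 (shSFMBT1), a gene for a chromatin protein with MBT repeats. In the Vector control group 2 cultures carried pLKO.1 with a control hairpin, which 1 label field calls scramble and another shLuc. All 4 cultures were kept in growth medium with serum and puromycin, so the vector, a hairpin and the selection drug are common to both groups, and the comparison cannot show a response that the groups share. No culture without a hairpin and none given interferon was analysed here. The series text says that the cultures were grown independently. Whether the lines are pools or single clones, and whether replicates came from separate transductions, are not given in the sources used here, so the spread between replicates may cover culture and array variation only.

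Interferons are secreted proteins that most cells release when sensors such as RIG-I and TLR3 detect foreign RNA. Type I interferon binds the receptor chains IFNAR1 and IFNAR2, and STAT2 and IRF9 then act in the nucleus at the interferon-stimulated response element in the promoters of target genes. The induced proteins include antiviral effectors and the machinery that loads peptides on class I major histocompatibility molecules. Double-stranded RNA can start this response in many cell types, which is why interferon targets are a usual check in experiments with hairpin vectors.

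The promoters of 4 members are shown because they carry the core of that response element and belong to genes whose values are given below: Bst2 and Ifit1, whose groups of arrays separated in opposite directions, B2m, and the GTPase gene Irgm1. The motif searched was GAAANNGAAA on either strand (TTTCNNTTTC on the other), in RefSeq promoters of GRCm38.p6 from 250 bases before to 50 after the start site. Capitals mark every match, and neighbouring matches may overlap. The windows are chr8:71537423-71537722 on the minus strand, chr19:34640639-34640938 on the plus strand, chr2:122147437-122147736 on the plus strand and chr11:48871371-48871670 on the minus strand.
Bst2: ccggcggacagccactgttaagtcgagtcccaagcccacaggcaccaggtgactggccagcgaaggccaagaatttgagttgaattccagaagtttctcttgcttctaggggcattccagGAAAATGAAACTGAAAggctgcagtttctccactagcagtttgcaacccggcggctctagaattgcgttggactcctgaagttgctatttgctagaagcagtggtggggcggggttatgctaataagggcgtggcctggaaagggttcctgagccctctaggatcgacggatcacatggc
Ifit1: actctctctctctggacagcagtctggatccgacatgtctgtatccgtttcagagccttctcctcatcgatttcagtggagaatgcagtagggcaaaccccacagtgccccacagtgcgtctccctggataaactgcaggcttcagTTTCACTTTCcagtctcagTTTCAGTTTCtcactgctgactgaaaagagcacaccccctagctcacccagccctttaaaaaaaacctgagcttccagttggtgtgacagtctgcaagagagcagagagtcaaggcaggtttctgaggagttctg
B2m: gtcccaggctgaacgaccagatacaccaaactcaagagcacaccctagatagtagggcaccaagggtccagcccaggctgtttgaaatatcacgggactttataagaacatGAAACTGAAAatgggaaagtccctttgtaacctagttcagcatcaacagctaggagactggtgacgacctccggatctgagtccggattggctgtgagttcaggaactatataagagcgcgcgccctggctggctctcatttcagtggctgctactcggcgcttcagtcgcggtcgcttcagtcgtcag
Irgm1: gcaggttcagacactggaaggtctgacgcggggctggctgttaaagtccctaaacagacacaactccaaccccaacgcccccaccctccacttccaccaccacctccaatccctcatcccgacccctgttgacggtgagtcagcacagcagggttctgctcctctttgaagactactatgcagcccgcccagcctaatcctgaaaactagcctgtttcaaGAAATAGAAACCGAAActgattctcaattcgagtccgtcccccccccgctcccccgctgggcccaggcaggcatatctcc
The first matched base lies 130 bases before the start site in Bst2, 104 in Ifit1, 139 in B2m and 30 in Irgm1. Of the 36 members with a promoter in the table, 16 held the motif in at least 1 promoter (44.4%), against 3.99% of 27025 genes and 3.44% of 32851 promoters in the search. A match describes the letters in the window and was not tested as a binding site. Among tested members the median log2 difference was -0.14 over the 11 with the motif and -0.07 over the 17 without it, with positive differences in 5 and 8 of them.

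The values are linear MAS5 signals on Affymetrix mouse arrays, 1 array per culture. For each array a background limit was set at the 95th percentile of 27 probe sets for bacterial transcripts; it lay at 69.3 and 42.9 in the knockdown and at 49.1 and 53.2 in the control. Knockdown replicate 1 had the lowest share of probe sets above its limit, 56.2% against 64.3% to 67.6% on the others. Of 8 myoblast markers all lay above background on every array and 0 were called between the groups. Of 6 myotube markers 5 rose in the knockdown, so the knockdown cultures also differed from the control in muscle genes, and the part of this in any difference given here was not tested. In such bulk samples fewer cells of a type and less RNA per cell cannot be told apart. All 5 probe sets of Sfmbt1 were lower in the knockdown without overlap. Of the 3 above background on every array, 1422893 had 89.2 and 139.0 in the knockdown and 230.3 and 291.5 in the control. In limma over every probe set its log2 difference was -1.11 (adjusted p = 0.0594). In the same test 1429749 and 1455412, which averaged 67.7% and 69.2% of the control, had adjusted p = 0.333 and 0.339. Probe set 1422894 averaged 17.4% of the control and was called lower there (log2 -2.35, adjusted p = 0.0219). It lay in the background range on knockdown replicate 2. Probe set 1443853 lay in the background range on all arrays.

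None of the 33 tested members differed between knockdown and control cultures at an adjusted p under 0.05. The test was limma on log2(signal + 16) with Benjamini-Hochberg adjustment over all genes tested, and a difference is knockdown minus control on that scale, where folds of dim genes come out smaller than they are. In the same fit 3.05% of all 12866 genes were called (1.44% higher and 1.61% lower), so 0 of 33 is near the share over all genes. At an unadjusted p under 0.05 there were 3 members, H2-D1 and Bst2 higher and Tapbp lower, against 15.0% of all genes (7.89% higher and 7.14% lower). When limma used 1 prior variance for all signal levels it called 0 members and 0 genes in all. Adjusted p-values ran between 0.146 and 0.975. The median difference was -0.07, beside 0.01 over all genes tested, with 15 positive and 18 negative.

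The groups of arrays did not overlap in 15 members. Over all genes tested 44.5% had groups that did not overlap. The 95% confidence interval of the difference, which rests on a spread shared across genes, lay below a 2-fold rise in 26 members, 78.8% of those tested, against 89.5% of all genes. The 7 members in which a 2-fold rise lay within the interval were Bst2, Oas1a, Ifi204, Oasl1, Irf9, Tap1 and Irf7. In 22 members the interval lay within 2-fold in either direction. In 25 members the difference was smaller than 0.5 log2 units in either direction, 75.8% against 86.9% of all genes. Dim members had the widest intervals.

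**Figure D1:**
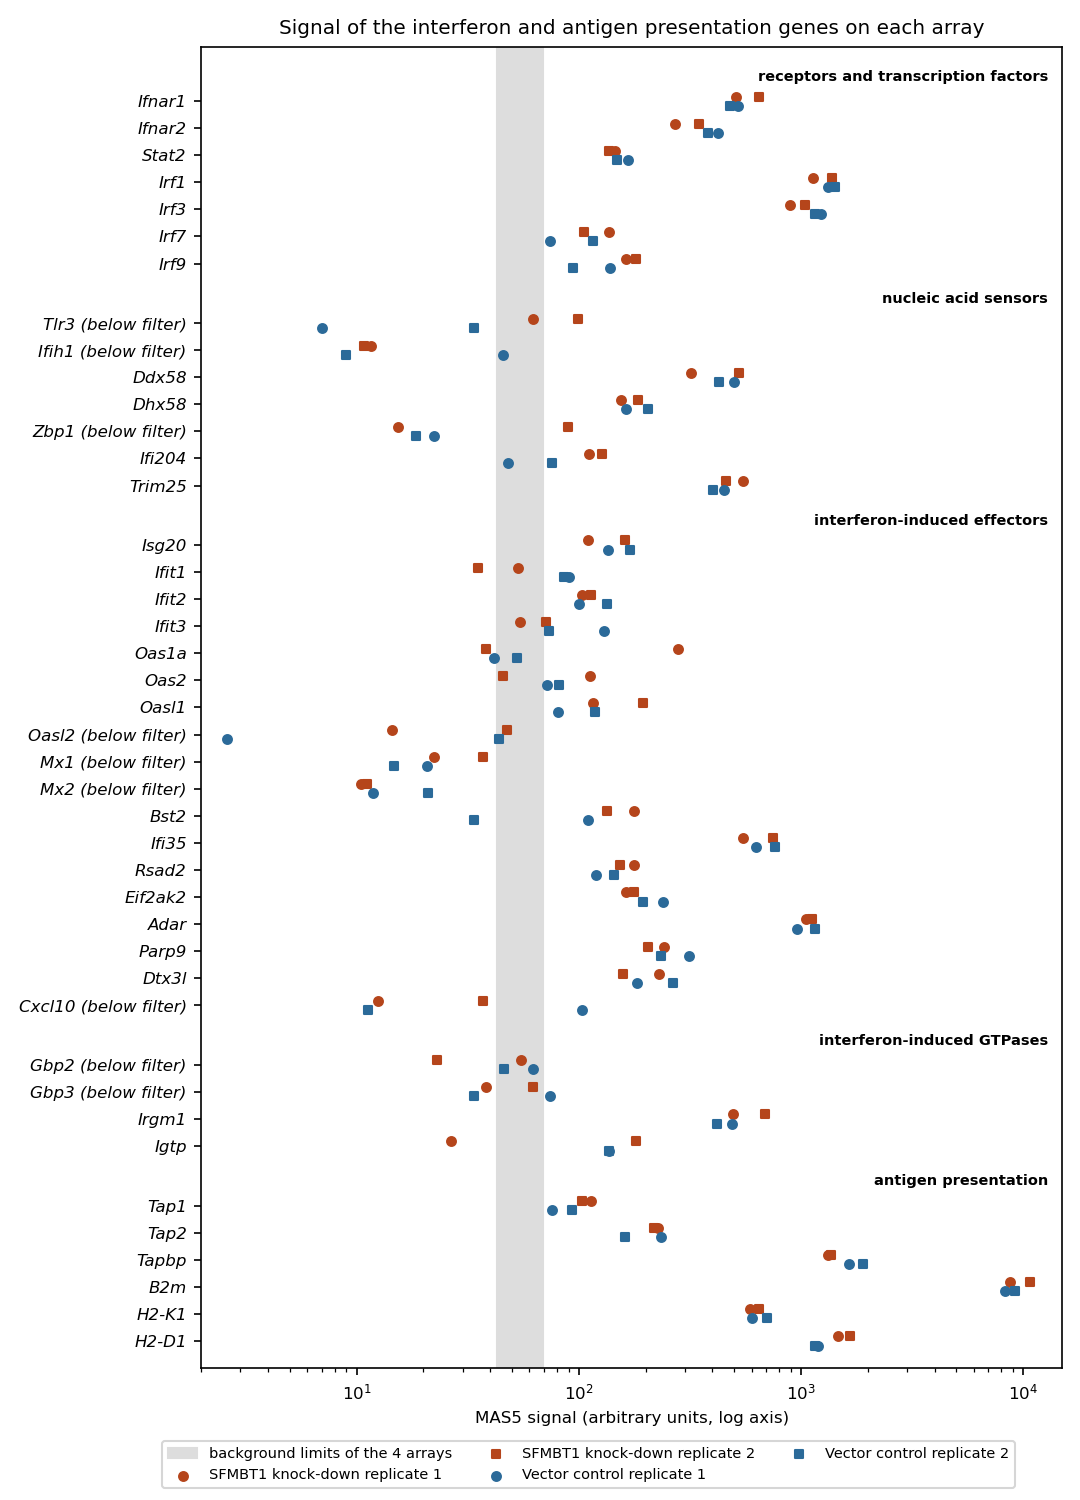
MAS5 signal (log axis) of the 42 members with a probe set of their own on each array, by role; knockdown cultures are red and drawn above control cultures in blue, circles are replicate 1 and squares replicate 2. The grey band spans the background limits of the 4 arrays, 42.9 to 69.3, and the 9 members below the filter lie mostly in or left of it.

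Among the receptor and transcription factor genes 0 of 7 were called, with differences from -0.38 to 0.52. Ifnar1, the gene for 1 chain of the type I interferon receptor, had signals of 509.9 and 650.9 in the knockdown and 520.9 and 478.8 in the control. Those groups overlapped, and the log2 difference was 0.20 (SE 0.17, adjusted p = 0.659). Ifnar2, for the other chain, had 272.0 and 348.0 in the knockdown and 424.9 and 383.9 in the control. Both knockdown values were lower, but the difference of -0.38 did not pass (SE 0.19, adjusted p = 0.388).

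Irf1, an interferon-induced transcription factor gene, had 1138.8 and 1375.6 in the knockdown and 1324.7 and 1432.5 in the control (log2 -0.14, SE 0.14, adjusted p = 0.734). Its groups overlapped, and the interval ran from -0.44 to 0.17. Irf3, which encodes a factor that acts downstream of the RNA sensors, had 894.3 and 1048.4 in the knockdown and 1227.2 and 1160.6 in the control. Its groups did not overlap, and the log2 difference was -0.30 (SE 0.14, adjusted p = 0.354). That probe set is of a kind that can bind related transcripts, and the other tested ones overlapped between the groups and gave -0.11 and -0.10. Stat2 and Irf9 encode partners in the complex that binds the response element. Stat2 had 146.2 and 137.1 in the knockdown and 167.0 and 148.9 in the control. Irf9 had 163.3 and 180.9 in the knockdown and 138.9 and 94.2 in the control. Both pairs of groups separated, with Stat2 lower (log2 -0.14, adjusted p = 0.874) and Irf9 higher (log2 0.52, adjusted p = 0.446), and neither passed. Irf7, an interferon-induced amplifier of the response, had 137.5 and 105.2 in the knockdown and 74.1 and 115.6 in the control, which overlapped (log2 0.32, adjusted p = 0.748).

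Of the 7 genes for nucleic acid sensors and their regulators 4 could be tested and 0 were called. Ddx58 encodes the RNA sensor RIG-I and had 321.9 and 524.5 in the knockdown and 497.9 and 427.4 in the control. The knockdown arrays enclosed the control arrays, with a log2 difference of -0.16 (SE 0.21, adjusted p = 0.798). Dhx58, for the related helicase LGP2, had 154.8 and 185.1 in the knockdown and 163.8 and 205.8 in the control, which overlapped (log2 -0.11, SE 0.26, adjusted p = 0.903). Trim25, a ubiquitin ligase gene known for its action on RIG-I, had 549.7 and 460.7 in the knockdown and 450.0 and 402.0 in the control. Both knockdown values were higher, without passing the test (log2 0.23, SE 0.17, adjusted p = 0.591). Ifi204, a gene of the interferon-inducible p200 family, had 111.1 and 126.9 in the knockdown and 48.2 and 75.9 in the control. The knockdown arrays were the higher ones, the log2 difference was 0.81 (SE 0.40, adjusted p = 0.359), and control replicate 1 lay in the background range.

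The untested sensors are Tlr3, Ifih1 and Zbp1. Tlr3, the endosomal receptor for double-stranded RNA, had 62.1 and 99.7 in the knockdown and 7.0 and 33.8 in the control. In this probe set 1 of the 4 arrays, knockdown replicate 2, lay above background. Another Tlr3 probe set, 1422781, had 70.3 and 22.5 in the knockdown and 7.5 and 20.4 in the control. There knockdown replicate 1 alone lay above background. Ifih1, a second cytosolic RNA helicase sensor, had 11.6 and 10.8 in the knockdown and 45.8 and 9.0 in the control, all in the background range. Zbp1, a sensor of Z-form nucleic acids, had 15.3 and 89.2 in the knockdown and 22.4 and 18.5 in the control, with knockdown replicate 2 alone above background.

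The 20 interferon-induced effector genes include most of the genes used as markers of an interferon response, and 14 of them could be tested with 0 called. The differences ran from -0.81 to 1.11, 5 positive and 9 negative, with a median of -0.10. Bst2, which encodes the membrane protein tetherin, had 177.9 and 134.5 in the knockdown and 109.9 and 33.7 in the control. The knockdown arrays were higher, and the log2 difference was 1.11 (SE 0.43, interval 0.20 to 2.02, adjusted p = 0.216). Control replicate 2 of Bst2 lay in the background range, and the value turns on which control array is used: without control replicate 1 it was 1.78 (adjusted p = 0.0141) and without control replicate 2 it was 0.44 (adjusted p = 0.747).

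Ifit1, the gene of an antiviral protein that binds foreign RNA ends and a strong interferon target, had 53.1 and 35.2 in the knockdown and 90.6 and 86.3 in the control. The knockdown arrays were lower and both lay in their background range, so Ifit1 passed the filter through the control arrays. Its log2 difference was -0.81 (SE 0.48, adjusted p = 0.467), with an interval from -1.83 to 0.20. Its neighbour in family and genome Ifit3 had 54.3 and 71.2 in the knockdown and 130.0 and 73.4 in the control. The knockdown arrays were lower, replicate 2 by little and replicate 1 within its background range (log2 -0.55, SE 0.43, adjusted p = 0.617). The difference was -0.19 without control replicate 1 and -0.90 without control replicate 2. Ifit2 had 103.6 and 113.2 in the knockdown and 100.4 and 133.6 in the control, and these overlapped (log2 -0.09, SE 0.33, adjusted p = 0.941). Isg15, the ubiquitin-like modifier gene, has no probe set of its own here. The probe set it shares with Gm9706 read 54.5 and 46.0 in the knockdown and 134.5 and 84.8 in the control and was not tested.

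The oligoadenylate synthetase genes, whose products activate the nuclease RNase L, and the related Oasl1 had 0 of 3 tested genes called. Oas1a had 279.3 and 38.4 in the knockdown and 41.5 and 52.7 in the control. Knockdown replicate 1 stood far above the other arrays, which all lay in their background ranges. The log2 difference of 1.01 (SE 0.61, adjusted p = 0.479) was -0.21 without knockdown replicate 1 (adjusted p = 0.948) and 2.23 without knockdown replicate 2 (adjusted p = 6.17e-04), so Oas1a passed the filter through 1 array and its direction rests on it. Oas2 had 112.2 and 45.8 in the knockdown and 72.1 and 81.2 in the control (log2 -0.06, SE 0.46, adjusted p = 0.975). The knockdown arrays again lay on either side of the control arrays, knockdown replicate 1 being the higher. Oasl1, an oligoadenylate synthetase-like gene, had 116.6 and 195.5 in the knockdown and 80.5 and 118.9 in the control, which overlapped (log2 0.55, SE 0.34, adjusted p = 0.488). Its difference was 0.89 without knockdown replicate 1 and 0.22 without knockdown replicate 2.

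Other effectors lay well above background. Adar, an RNA-editing deaminase gene with an interferon-induced isoform, had 1057.4 and 1118.3 in the knockdown and 965.1 and 1163.0 in the control. The control arrays enclosed the knockdown arrays, and the interval of the difference ran from -0.27 to 0.35 (log2 0.04, SE 0.15, adjusted p = 0.942). Ifi35, a gene for an interferon-induced leucine zipper protein, had 551.3 and 752.2 in the knockdown and 630.4 and 766.6 in the control, which overlapped (log2 -0.11, SE 0.18, adjusted p = 0.849). Eif2ak2, which encodes the double-stranded RNA-activated kinase PKR, had 163.3 and 177.1 in the knockdown and 240.8 and 194.3 in the control. Both knockdown values were lower (log2 -0.32, SE 0.24, adjusted p = 0.597), without passing the test. Rsad2, the gene of the antiviral enzyme viperin, had 176.8 and 153.8 in the knockdown and 119.6 and 143.6 in the control, with the knockdown arrays higher (log2 0.30, SE 0.28, adjusted p = 0.690).

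Parp9 and Dtx3l encode proteins that form a complex. Parp9 had 242.2 and 204.9 in the knockdown and 314.7 and 233.8 in the control (log2 -0.27, SE 0.23, adjusted p = 0.647). Dtx3l had 229.0 and 158.7 in the knockdown and 183.8 and 265.1 in the control (log2 -0.20, SE 0.26, adjusted p = 0.798). The groups overlapped in both genes. Isg20, an exonuclease gene, had 109.6 and 161.5 in the knockdown and 135.9 and 170.1 in the control, which also overlapped (log2 -0.17, adjusted p = 0.856).

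Of the 4 GTPase genes, whose products act on the vacuoles of intracellular pathogens, 2 could be tested and 0 were called. Irgm1 had 494.6 and 690.6 in the knockdown and 489.3 and 421.4 in the control. The knockdown arrays were higher, replicate 1 by little, with a log2 difference of 0.35 (SE 0.19, interval -0.04 to 0.75, adjusted p = 0.399). Igtp had 26.5 and 182.1 in the knockdown and 136.3 and 137.0 in the control. The control arrays were nearly equal, while knockdown replicate 1 lay in its background range and knockdown replicate 2 was above both. The log2 difference of -0.73 (SE 0.52, adjusted p = 0.569) was 0.38 without knockdown replicate 1 (adjusted p = 0.677) and -1.84 without knockdown replicate 2 (adjusted p = 0.0138), so its direction rests on 1 array.

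**Figure D2:**
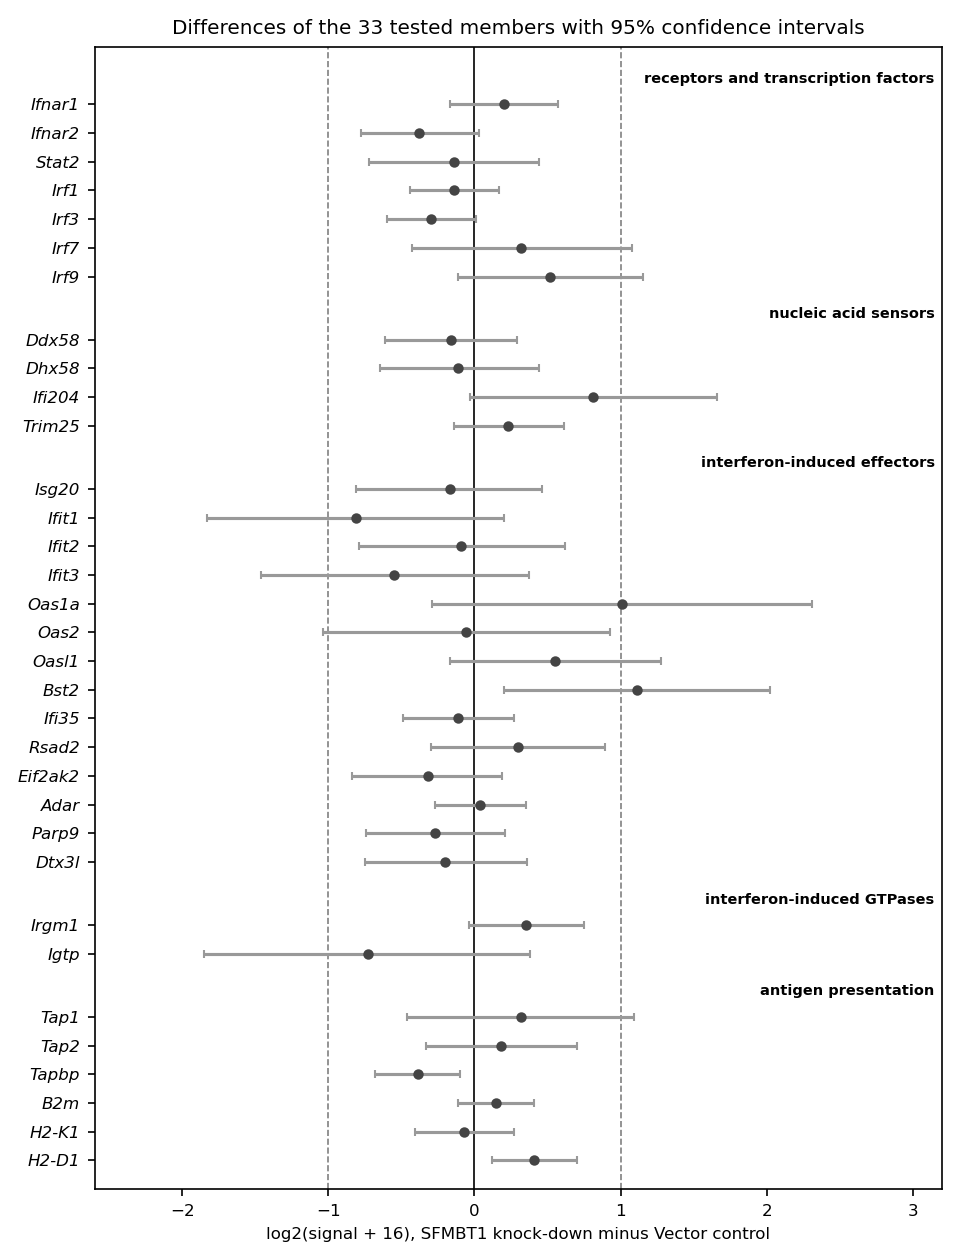
Difference in log2(signal + 16), knockdown minus control, of the 33 tested members with 95% confidence intervals, by role; dashed lines mark a 2-fold change. The intervals of Bst2, H2-D1 and Tapbp leave out 0, none of the 33 passed after adjustment, and the widest belong to dim genes such as Oas1a.

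The 6 antigen presentation genes were all above background on every array and 0 were called, with differences from -0.39 to 0.41. B2m encodes beta-2-microglobulin, the light chain shared by class I molecules, and had 8739.1 and 10736.3 in the knockdown and 8308.3 and 9169.4 in the control. The groups overlapped, and the interval ran from -0.11 to 0.41 (log2 0.15, SE 0.12, adjusted p = 0.638). H2-K1, a class I heavy chain gene, had 592.6 and 648.3 in the knockdown and 603.8 and 704.5 in the control, which overlapped (log2 -0.07, SE 0.16, adjusted p = 0.896). H2-D1, the other heavy chain gene of the list, had 1475.0 and 1670.0 in the knockdown and 1201.3 and 1157.2 in the control. Both knockdown arrays were higher, and H2-D1 had the smallest adjusted p of the members (log2 0.41, SE 0.14, adjusted p = 0.146). Centring each array on its median moved it to 0.45 with an adjusted p of 0.0400. Class I genes are related in sequence, and the probe sets of H2-K1 and H2-D1 used here are of a kind that can bind related transcripts. A signal may therefore hold several of them.

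Tapbp encodes tapasin, which holds class I molecules at the peptide transporter. It had 1329.5 and 1363.5 in the knockdown and 1645.4 and 1903.3 in the control. Both knockdown values were lower, by 0.39 on the log2 scale in the mean (log2 -0.39, SE 0.14, interval -0.68 to -0.10, adjusted p = 0.163). Its other probe set, 1450378, had 739.8 and 573.1 in the knockdown and 1072.9 and 1180.1 in the control. In a test of each probe set above the filter this one was called lower (log2 -0.77, SE 0.16, adjusted p = 0.0314), 1 of the 56 tested probe sets of the members, while 2.39% of all 22893 probe sets were called (0.961% higher and 1.43% lower). The probe set 1421812, which stands for Tapbp in the gene test, had an adjusted p of 0.173 there.

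Tap1 and Tap2 encode the subunits of the peptide transporter. Tap1 had 113.8 and 103.3 in the knockdown and 75.7 and 93.1 in the control (log2 0.32, SE 0.36, adjusted p = 0.762). Tap2 had 228.3 and 218.5 in the knockdown and 234.4 and 161.4 in the control (log2 0.18, SE 0.24, adjusted p = 0.798). The knockdown was higher on both arrays in Tap1 and overlapped the control in Tap2.

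The choice of probe set mattered for direction more than for calls. Of 13 members with more than 1 tested probe set, 6 had all of them in 1 direction (Irf3, Ddx58, Ifi35, Dtx3l, Tapbp and B2m) and 7 had both directions (Ifnar2, Trim25, Rsad2, Eif2ak2, Adar, H2-K1 and H2-D1). The second B2m probe set gave 0.12, close to the 0.15 of the first. In Ifnar2 the others gave 0.49 and 0.44, against -0.38 in the one used. In Adar another gave -0.50 (adjusted p = 0.233), and in H2-K1 another gave 0.73 (adjusted p = 0.239). For H2-D1 4 of 5 tested probe sets were positive, between 0.41 and 0.67, and the remaining one gave -0.63.

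**Figure D3:**
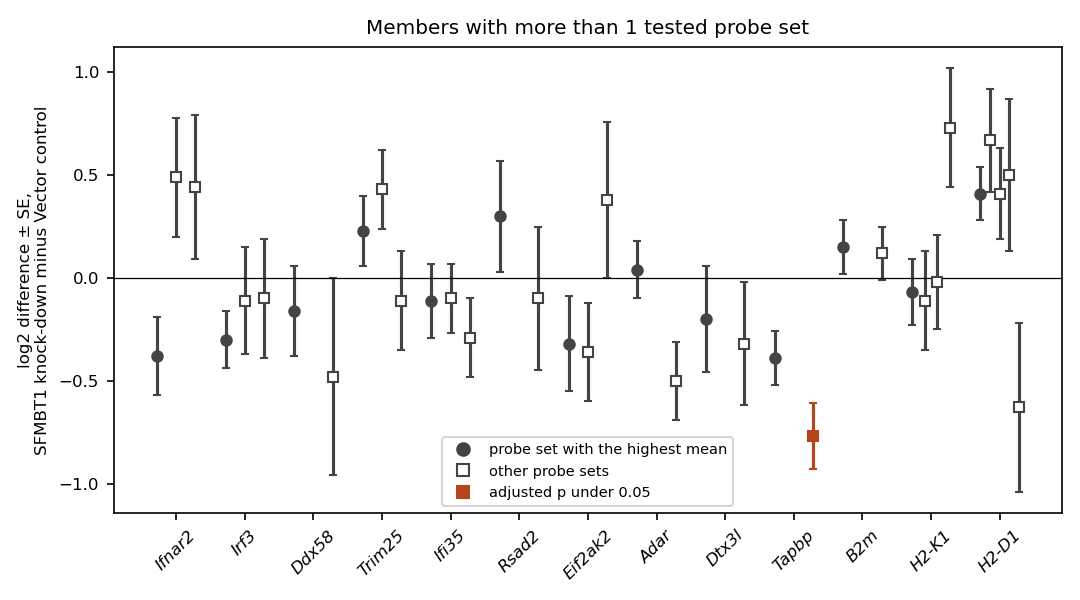
Difference in log2(signal + 16) ± SE, knockdown minus control, of each tested probe set of the 13 members with more than 1; filled circles are the probe sets used in the gene test, and red marks an adjusted p under 0.05 over 22893 probe sets. The second Tapbp probe set, at -0.77, is the only red one.

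Several classical interferon targets could hardly be measured in either group. The 9 members below the filter were Tlr3, Ifih1, Zbp1, Oasl2, Mx1, Mx2, Cxcl10, Gbp2 and Gbp3. Of their 18 signals in the knockdown 4 lay above the array's background limit, and of their 18 in the control 3. Mx1, a gene for a dynamin-like antiviral GTPase, had 22.2 and 37.0 in the knockdown and 20.7 and 14.8 in the control. Cxcl10, a chemokine gene strongly induced by interferon, had 12.5 and 37.2 in the knockdown and 103.1 and 11.3 in the control. All arrays of Mx1 and Mx2 lay in the background range, and Cxcl10 was above it on control replicate 1 alone. When no filter was applied and 0.302% of 18193 genes were called (0.126% higher and 0.176% lower), 0 of the 42 members were, and the 9 dim members had adjusted p-values between 0.32 and 0.986. Of those 9, Tlr3 was the 1 with an unadjusted p under 0.05 (log2 1.49, adjusted p = 0.32). Ifi44 has no probe set that the annotation gives to it, and no value is reported.

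Other genes of the same pathways and of the small RNA machinery were taken from lists written down with the members. Of these 109 genes 77 could be tested. None was called higher and 4 were called lower in the knockdown, against 1.44% of all genes called higher and 1.61% called lower. They were Ccl2, Ifitm1 and Ifitm3, of 26 tested genes in the list of other interferon-induced genes, and Ago1, of 13 tested genes of the small RNA machinery. Among other interferon signalling genes (14 tested), other sensing and relay genes (10) and other antigen presentation genes (14) 0 were called. The medians of these lists lay between -0.18 and 0.07, beside 0.01 over all genes. The lowest was that of the other interferon-induced genes, with 9 positive and 17 negative differences, beside 52.2% positive over all genes.

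Ifitm3 encodes a membrane protein that restricts virus entry, and had 4418.8 and 5243.4 in the knockdown and 7093.7 and 7252.7 in the control (log2 -0.57, SE 0.12, adjusted p = 0.0166). Ifitm1, of the same family, had 405.9 and 389.9 in the knockdown and 793.1 and 559.1 in the control (log2 -0.72, SE 0.18, adjusted p = 0.0445). Their relative Ifitm2 had 4135.6 and 4910.1 in the knockdown and 4181.4 and 4561.6 in the control (log2 0.05, adjusted p = 0.918). So 2 of these 3 genes of 1 family fell, and Ifitm2 overlapped between the groups.

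Ccl2, a chemokine gene that responds to inflammatory signals as well as interferon, had 688.5 and 850.6 in the knockdown and 1216.5 and 1419.9 in the control (log2 -0.77, SE 0.15, adjusted p = 0.0124). Ago1 encodes an Argonaute protein that binds small RNAs and had 378.5 and 417.1 in the knockdown and 645.8 and 935.5 in the control (log2 -0.94, SE 0.19, adjusted p = 0.0111). Ago2, the slicing Argonaute through which hairpin-derived small interfering RNAs act, had 2405.7 and 2492.1 in the knockdown and 2246.7 and 2186.9 in the control (log2 0.14, adjusted p = 0.660). Knockdown and control did not overlap in either gene, in opposite directions, and Ago2 was not called.

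The 4 calls depend on the arrays. Without control replicate 2 Ifitm1 alone stayed called (adjusted p = 0.00417), while the differences of the others were -0.68 for Ago1 (adjusted p = 0.116), -0.66 for Ccl2 (adjusted p = 0.0700) and -0.56 for Ifitm3 (adjusted p = 0.0579). Cd1d1, an antigen presentation gene for lipids, was then called higher (log2 1.07, adjusted p = 0.0177). With all 4 arrays Cd1d1 had 262.7 and 363.3 in the knockdown and 138.6 and 183.1 in the control (log2 0.89, SE 0.24, adjusted p = 0.0609), and it was also called when only the upper 40% of signals were tested (adjusted p = 0.0179). Without control replicate 1 Ifitm1 was lost (adjusted p = 0.471) and Epsti1 was called higher (log2 1.69, adjusted p = 0.0499). Without knockdown replicate 1 Cd1d1 was called higher (log2 1.11), and without knockdown replicate 2 Ifi47 was called lower (log2 -1.74, adjusted p = 0.0264), beside the same 4 genes in each case. Ifitm1 was also not called with a pseudocount of 1 (adjusted p = 0.0503), median centring, quantile normalization or every probe set. It was also not called without suffixed probe sets (names ending in _s_at, _x_at or _a_at, left out where the gene had another). In these fits its adjusted p reached at most 0.0965. Without the filter on dim probe sets and without the variance trend none of the 4 was called, at the same differences.

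**Figure D4:**
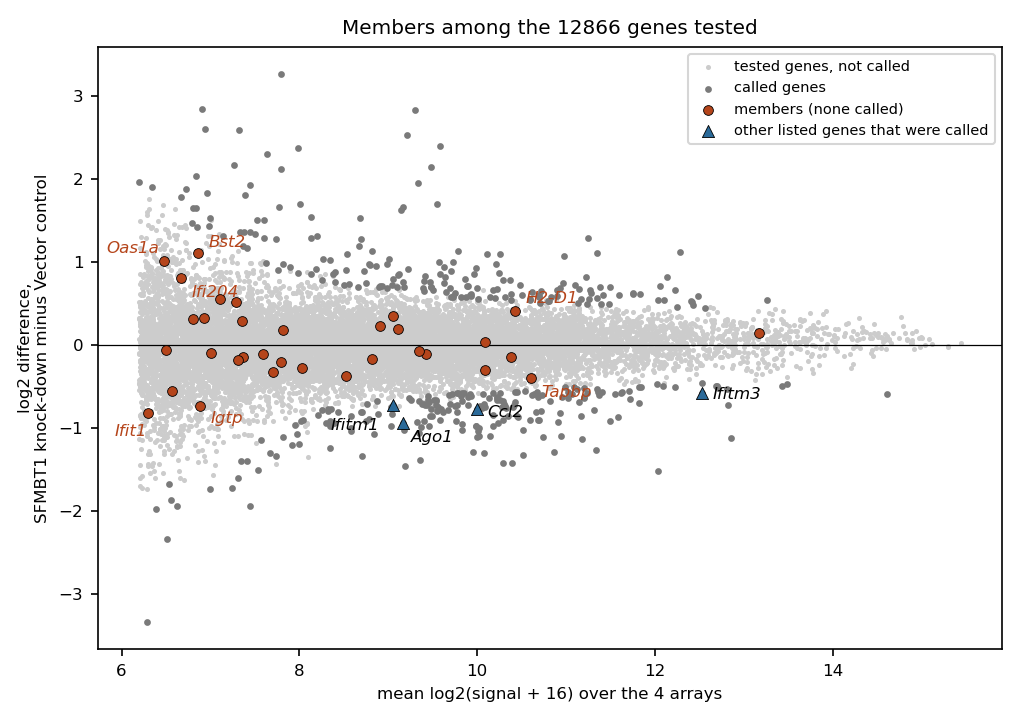
Difference in log2(signal + 16), knockdown minus control, against mean log2(signal + 16) over the 4 arrays for the 12866 genes tested; red circles are the 33 tested members and blue triangles the 4 other listed genes that were called. The members lie among the genes that were not called, between -0.81 and 1.11.

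Many interferon targets are high in immune cells, so markers of immune and other non-muscle cells were read beside the members. Of 8 macrophage and dendritic cell markers 5 could be tested and 0 were called. The summed signal of the 8 was 738.0 and 1036.8 in the knockdown and 914.4 and 1111.3 in the control. Csf1r was the largest part, with 335.4 and 417.9 in the knockdown and 362.0 and 438.9 in the control. Such sums add probe sets of unlike brightness and do not measure the number of cells. The sums of 3 lymphocyte markers were 119.9 and 169.6 in the knockdown and 213.2 and 167.0 in the control. For 4 endothelial markers they were 326.5 and 356.1 in the knockdown and 401.3 and 384.6 in the control. Of these 15 genes 4 lay in the background range on every array. Among 4 fibroblast markers Col1a1 alone was called, and it rose (log2 1.96, adjusted p = 9.00e-06). Pdgfra gave 0.05 (adjusted p = 0.966) and Thy1 0.11 (adjusted p = 0.931), and Dpt lay below the filter. The sum of the 6 myotube markers was 4680.5 and 4861.6 in the knockdown and 1314.6 and 1028.1 in the control, and their part in the values of the members was not tested.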

How the data were processed

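The authors deposited 1 linear intensity (signal) per probe set and array. The submitters' processing notes name MAS5 and GCOS without versions. The scaling between arrays is not stated there, and values were used as deposited. MAS5 subtracts mismatch signals, which makes dim values noisy. Of 45101 probe sets 34945 were given to 1 gene by the platform annotation, 932 to several and 9160 to none there; 64 more are control probe sets. The promoter search covered all chromosomes but 18. Symbols were checked by gene identifier against RefSeq names of GRCm38.p6 (34741 matched).

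Signals were taken as log2(signal + 16). Each gene was represented by its probe set with the highest mean, and the 60% of probe sets with the highest mean (above a signal of 57.3) were kept. The difference, knockdown minus control, was tested with limma 3.58.1 in R 4.3.3 (lmFit, eBayes with a trend), with Benjamini-Hochberg adjustment over 12866 genes and a threshold of 0.05. There were 2 residual degrees of freedom and 13.8 from the prior. An exact permutation test of 2 against 2 arrays cannot give a p under 0.333. The number of arrays limits the precision. The limma fit and the adjustment were also run on simulated signals with normal noise, whose spread followed the signal level alone. The choice of probe set, the filter and the pseudocount were not part of that run.

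The members and lists were chosen with earlier results of these data known. Full values are given for the 3 tested members of each role with the highest mean signal and the 2 with the smallest p; other members with full values were picked with their values in view. Of the other pathway and small RNA genes, those called were named. Ifitm2, Ago2 and the genes that 1 array decides were added after their values were seen. Alternatives for these other genes and for the interval counts were also added after seeing the data. Some listed genes have no probe set of their own here and are not reported.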

Additional observations from a re-analysis of the deposited data

How the results depend on the processing

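The count of called members was 0 higher and 0 lower under pseudocounts of 1 and 64, no filter and the upper 40% of signals. It was the same under no variance trend, quantile normalization, no suffixed probe sets and the replicate number as a block. With every probe set it was also the same, counting the 1 that stands for each gene, and a second Tapbp probe set was called lower there. Suffixed probe sets have names ending in _s_at, _x_at or _a_at and were left out where the gene had another. H2-D1 then kept only probe sets below the filter and was not tested. The replicate block gave a median of -0.07, and same-numbered cultures did not deviate together (r = 0.01 over 12866 genes, which are not independent), so the numbers were not taken as pairs. Median centring called 1 member higher, H2-D1, where 339 of all 12866 genes were called higher and 218 lower. The fits without 1 array left 1 array in that group. As given above, Bst2 was 1.78 without control replicate 1, and Oas1a was 2.23 and Igtp -1.84 without knockdown replicate 2. The median of the members ran from -0.07 to 0.08 in those fits, the highest without knockdown replicate 1, beside medians of -0.04 to 0.08 over all genes.

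Of 446 differences of the 33 tested members under these alternatives 18 changed sign. Quantile normalization turned Oas2 to 0.01. Leaving out 1 array gave ranges of -0.10 to 0.17 for Adar, -0.50 to 0.18 for Ddx58, -0.26 to 0.04 for Dhx58, -0.44 to 0.05 for Dtx3l, -0.18 to 0.04 for H2-K1, -0.33 to 0.11 for Ifi35, -0.27 to 0.09 for Ifit2, -1.84 to 0.38 for Igtp, -0.42 to 0.08 for Isg20, -0.21 to 2.23 for Oas1a, -0.58 to 0.47 for Oas2 and -0.07 to 0.43 for Tap2. The cause was not tested. The other 21 kept their sign in all 4 such fits, though sizes moved. Differences lay between 0.28 and 0.77 in Irf9, 0.05 and 0.60 in Irf7, 0.12 and 0.59 in Irgm1 and -0.47 and -0.06 in Parp9. Bst2 ran from 0.44 to 1.78. Without suffixed probe sets Irf3 gave -0.10 in place of -0.30. The number of members whose interval lay below a 2-fold rise was 24 to 27 of 32, 33 or 42 tested, 30 with a pseudocount of 64 and 18 of 18 in the upper 40%.

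Over all genes 185 were called higher and 207 lower, against 23 and 32 without the filter, 0 and 0 without the trend (1501 at an unadjusted p under 0.05) and 339 and 218 with median centring, where the share of higher calls was 60.9% in place of 47.2%. The upper 40% gave 284 and 321, and leaving out knockdown replicate 1 or 2 gave 407 and 264 or 167 and 450. Signals near background limit what can be said of the 9 dim members.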

Other observations

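Igtp and Ifi47, genes of the same family of interferon-inducible GTPases measured by different probe sets, shared an uneven pattern over the arrays. Igtp had 26.5 and 182.1 in the knockdown and 136.3 and 137.0 in the control, and Ifi47 had 27.8 and 168.2 in the knockdown and 128.1 and 133.0 in the control. In both genes knockdown replicate 1 lay in its background range and the other arrays did not, so the difference between the groups was set by 1 culture. The pair was noticed after the values were seen, and its cause was not tested.

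Probe sets that the annotation gives to several genes were left out of the tests. One shared by H2-K1 and H2-D1 had 251.9 and 212.3 in the knockdown and 244.2 and 255.7 in the control, which overlapped, whereas the H2-D1 probe set of the gene test was higher on both knockdown arrays. One shared by Ifi204 and 3 relatives (Mndal, Ifi211 and Ifi205) had 240.3 and 234.9 in the knockdown and 173.4 and 183.4 in the control, with both knockdown arrays higher, as in the probe set of Ifi204 alone.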
